A study of Rattus norvegicus with 13 samples.

Results

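The genes described here are 6 macrophage genes, Lyz2, Cybb, Mrc1, Cd68, Fcer1g and Cd53, measured in cultures of skin-derived precursors (SKPs) and of mesenchymal stromal cells (MSCs). They are 6 of the 14506 genes with a level on the array. They were chosen by symbol, with their levels in these cultures already known, so their levels and group differences are given as a description with the spread between isolates and without a test. Each was represented by 1 probe set.

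The study profiled cultured cells of adult Sprague Dawley rats on Affymetrix Rat Gene 1.0 ST arrays, on which each probe set sums probes spread along a transcript. SKPs are precursor cells grown from dermis that share properties with the neural crest. The series title concerns a like precursor cell arising in adult dermis of unlike embryonic source. As background, most facial dermis comes from neural crest, that of the back from somites, and that of the ventral trunk from lateral plate mesoderm. There were 3 isolates each of dorsal, facial and ventral trunk SKPs and 4 of MSCs, 13 arrays in all. The labels call the isolates independent. All groups were of the same strain, had been passaged 2 times and carry no treatment or genetic change in the labels. The sex of the rats, their exact age, the tissue that gave the MSCs, the culture media and any sorting of the cells are not stated in the labels.

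Macrophages are phagocytes of the innate immune system, and normal dermis holds resident populations of them. They take up particles and glycoproteins through receptors such as the mannose receptor, signal through receptor chains that carry activation motifs (ITAMs), kill microbes with lysozyme and with superoxide from an NADPH oxidase, and degrade what they take up in lysosomes. Their development and survival depend on the receptor Csf1r and on the transcription factor PU.1, the product of Spi1, which binds DNA at a GAGGAA core.

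Promoter sequences of 5 of the 6 genes were found by symbol in the RefSeq table of assembly GRCr8, and that of Fcer1g is named only. The 100 bases before each annotated start are shown because these genes varied together across the arrays and because the GAGGAA core of PU.1 and related ETS factors lies in all 5 windows. They run 5′ to 3′ on the strand of the gene, and capitals mark GAGGAA (read on the opposite strand as TTCCTC) and TGANTCA, a pattern that includes the AP-1 site. The windows are chr7:54798012-54798111, minus strand, for Lyz2 and chrX:16065066-16065165, minus strand, for Cybb. They are chr17:82157625-82157724, plus strand, for Mrc1, chr10:54882442-54882541, minus strand, for Cd68 and chr2:197087897-197087996, minus strand, for Cd53.
Lyz2: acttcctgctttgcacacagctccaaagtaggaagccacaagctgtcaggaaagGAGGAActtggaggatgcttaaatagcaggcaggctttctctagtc
Cybb: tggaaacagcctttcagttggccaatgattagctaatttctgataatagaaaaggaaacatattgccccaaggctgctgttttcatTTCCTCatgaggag
Mrc1: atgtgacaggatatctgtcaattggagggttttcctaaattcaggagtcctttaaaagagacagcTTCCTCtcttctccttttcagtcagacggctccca
Cd68: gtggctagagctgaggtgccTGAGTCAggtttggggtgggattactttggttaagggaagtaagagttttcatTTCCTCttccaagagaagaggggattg
Cd53: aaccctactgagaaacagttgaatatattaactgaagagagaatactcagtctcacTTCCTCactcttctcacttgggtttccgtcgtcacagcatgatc

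In the 250 bases before the start, searched on both strands, GAGGAA lay in 5 of 5 of these promoters. The share was 23.2% among all 27457 RefSeq promoters, 23.4% among the 11970 of genes with a level here and 45.9% among the 74 promoters of the other macrophage and leukocyte genes described below. Counted from the last base before the start, the match nearest to it lay at bases 46 to 41 in Lyz2, 44 to 39 in Cd53, 35 to 30 in Mrc1, 27 to 22 in Cd68 and 14 to 9 in Cybb, and Mrc1 held another at bases 180 to 175. The longer GAGGAAGT, which contains GAGGAA, lay in Cd53 alone among the 5 and in 2.04% of all promoters. TGANTCA lay in Cd68 at 2 positions and in Cybb at 1, against 6.36% of all promoters. The letters were chosen after the sequences were seen, and a match describes the sequence and not a bound site.

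Levels are log2 RMA values as deposited, so 1 unit is a 2-fold difference, and they compare arrays for 1 gene and not different genes. Background was taken as the 95th percentile of the group means of 1105 olfactory receptor genes, 3.94 to 4.04 over the groups. Values at or below it do not show expression. The 14 stromal genes (collagens, Pdgfra, Dcn and others) had a mean level of 10.46 to 12.16 on every array, so all cultures carried a mesenchymal profile. Dorsal array 3 stood apart from the other SKP arrays before any macrophage gene is considered. Its 11 cell cycle genes averaged 4.77, against 5.68 to 6.95 on the other 8, and its 13 hypoxia and glycolysis genes 10.61, against 9.02 to 9.41. The dorsal differences of the 6 genes and the dorsal counts are therefore also given without it.

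**Figure D1:**
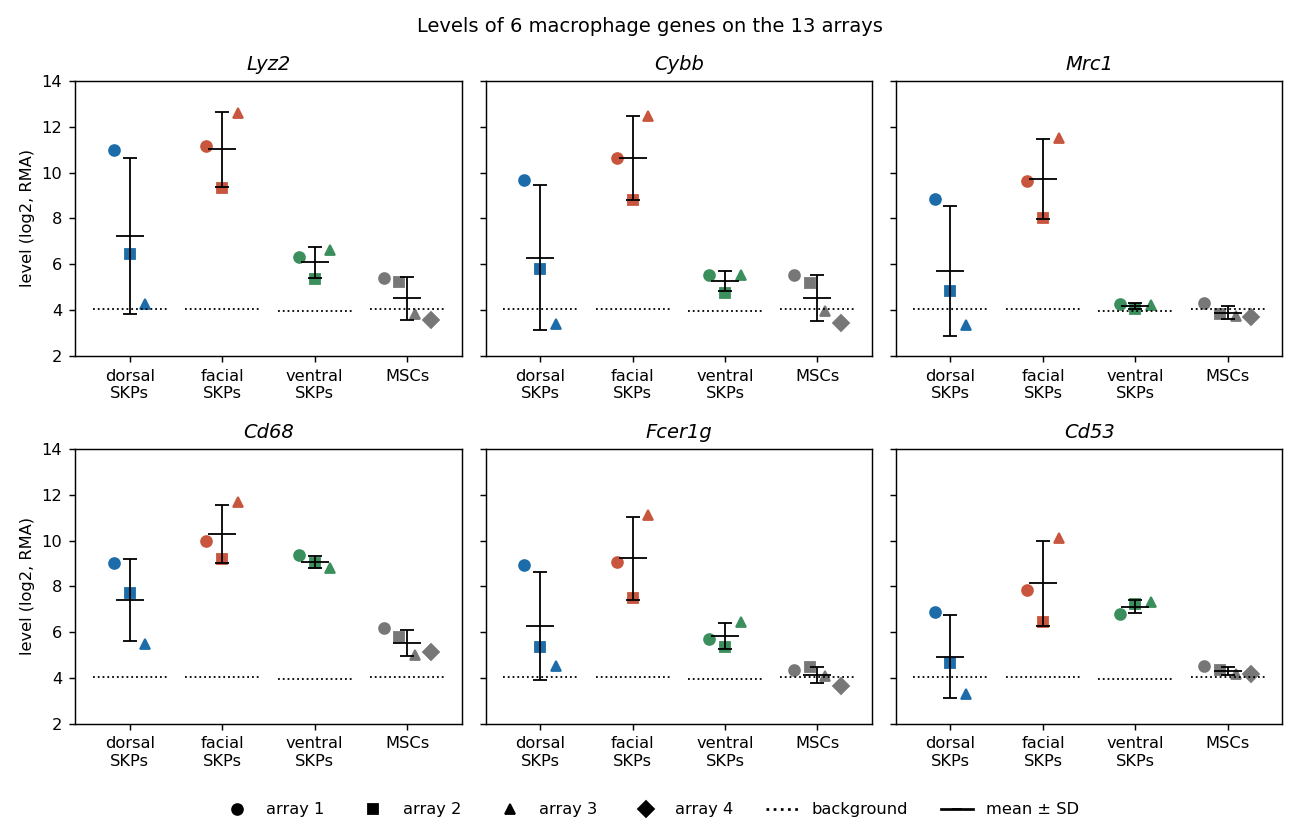
Levels (log2, RMA) of the 6 macrophage genes, 1 panel a gene, by group (x axis). Points are arrays with the shape giving the array number, bars are group means with the SD over its 3 (SKP) or 4 (MSC) arrays and dotted lines are the background. Facial array 3 (triangle) is the highest in all 6 panels, and Cd68 and Cd53 differ from the other 4 in being high on all 3 ventral arrays.

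Lyz2 encodes the secreted lysozyme of macrophages, which cuts bacterial cell walls (probe set 10902547). Its level was 11.16, 9.31 and 12.59 on facial arrays 1 to 3 and 10.98, 6.44 and 4.28 on dorsal arrays 1 to 3. On ventral arrays 1 to 3 it was 6.31, 5.34 and 6.62, and on MSC arrays 1 to 4 it was 5.41, 5.22, 3.83 and 3.58. All 3 facial arrays lay above every ventral and MSC array, dorsal array 1 lay among the facial arrays, and the ventral and MSC ranges overlapped. The facial mean, 11.02 ± 1.64 (SD, n = 3), was higher than the MSC mean, 4.51 ± 0.94 (SD, n = 4), by 6.51 on the log2 scale (SE 1.27), or 91.2-fold. In bulk RNA a larger share of cells of a type and more RNA per cell cannot be told apart, here and in all results that follow.

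Cybb encodes the catalytic subunit of the phagocyte NADPH oxidase (probe set 10936899). It stood at 10.62, 8.82 and 12.46 on the facial arrays and at 9.66, 5.79 and 3.40 on the dorsal arrays. The ventral arrays gave 5.52, 4.75 and 5.52 and the MSC arrays 5.52, 5.19, 3.96 and 3.42. The order of arrays was close to that of Lyz2, with facial arrays apart from ventral and MSC arrays and dorsal array 1 among the facial ones. Facial SKPs (10.64 ± 1.82, SD, n = 3) exceeded MSCs (4.52 ± 0.99, SD, n = 4) by 6.12 (SE 1.23), or 69.3-fold, while ventral SKPs (5.26 ± 0.44, SD, n = 3) exceeded them by 0.74 (SE 1.23).

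The mannose receptor Mrc1, an endocytic lectin used as a marker of resident and alternatively activated macrophages (probe set 10796476), had levels of 9.64, 8.0 and 11.52 on the facial arrays. Dorsal arrays 1 to 3 gave 8.87, 4.85 and 3.37. Ventral arrays lay at 4.26, 4.05 and 4.23 and MSC arrays at 4.30, 3.81, 3.73 and 3.68. The 3 facial arrays and dorsal arrays 1 and 2 were above background, and dorsal array 3 was below it. The 3 ventral arrays, with a mean of 4.18 ± 0.11 (SD, n = 3), and MSC array 1 were just above their backgrounds of 3.94 and 4.04, and the other 3 MSC arrays were below. Because the MSC mean (3.88 ± 0.29, SD, n = 4) was below background, the facial excess is a bound, at least 51.2-fold over the MSC background of 4.04, beside a measured difference of 5.84 (SE 1.07).

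Fcer1g encodes the gamma chain, an ITAM adaptor that carries the signal of several Fc receptors and lectins (probe set 10769825). The facial arrays gave 9.06, 7.51 and 11.12 and the dorsal arrays 8.95, 5.34 and 4.54. The ventral arrays gave 5.70, 5.36 and 6.45 and the MSC arrays 4.33, 4.48, 4.09 and 3.65. This was the 1 gene of the 6 for which no array of any SKP region reached down into the MSC range. Facial SKPs (9.23 ± 1.81, SD, n = 3) lay 5.09 (SE 0.97) above MSCs (4.14 ± 0.36, SD, n = 4), or 34.1-fold, and ventral SKPs (5.84 ± 0.55, SD, n = 3) lay 1.70 (SE 0.97) above them.

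Cd68 encodes a heavily glycosylated protein of late endosomes and lysosomes and is a common histological marker of macrophages (probe set 10744127). Its levels were 9.97, 9.20 and 11.69 on the facial arrays, 9.36, 9.02 and 8.82 on the ventral arrays, and 9.04, 7.72 and 5.47 on the dorsal arrays. MSC arrays gave 6.18, 5.78, 5.0 and 5.14. Unlike the 4 genes above, Cd68 was high in all 3 ventral isolates, whose range overlapped that of the facial isolates. The ventral range also lay wholly above that of MSCs, as it did for Fcer1g. The ventral mean, 9.07 ± 0.27 (SD, n = 3), exceeded the MSC mean, 5.53 ± 0.55 (SD, n = 4), by 3.54 (SE 0.74), or 11.6-fold. The facial mean, 10.28 ± 1.28 (SD, n = 3), exceeded it by 4.76 (SE 0.74), or 27.1-fold.

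Cd53 encodes a tetraspanin of the leukocyte surface (probe set 10825809). It was at 7.85, 6.43 and 10.12 on the facial arrays and at 6.80, 7.22 and 7.33 on the ventral arrays. The dorsal arrays gave 6.88, 4.64 and 3.28 and the MSC arrays 4.54, 4.34, 4.17 and 4.17. As for Cd68, the ventral isolates overlapped the facial ones and were clear of MSCs, and dorsal array 3 was below every MSC array. Ventral SKPs (7.12 ± 0.28, SD, n = 3) lay 2.81 (SE 0.83) above MSCs (4.30 ± 0.18, SD, n = 4), or 7.02-fold, and facial SKPs (8.13 ± 1.86, SD, n = 3) lay 3.83 (SE 0.83) above them, or 14.2-fold.

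Ordered by group mean, Lyz2, Cybb, Mrc1 and Fcer1g ran facial, dorsal, ventral and MSC from high to low, and Cd68 and Cd53 ran facial, ventral, dorsal and MSC. Between neighbours in these orders the ranges of single arrays overlapped for facial and dorsal SKPs in Lyz2, Cybb, Mrc1 and Fcer1g, for facial and ventral SKPs in Cd68 and Cd53, and for dorsal and ventral SKPs in all 6. Dorsal and MSC ranges overlapped for Cd68 and Cd53, which are neighbours in those orders. The lowest neighbours of the other 4, ventral SKPs and MSCs, overlapped for Lyz2, Cybb and Mrc1 and did not for Fcer1g. Facial and MSC arrays, which are not neighbours, did not overlap for any of the 6. The share of all genes whose arrays do not overlap was not counted. By a different measure, limma calls, 9.47% of all genes were higher in facial SKPs than in MSCs. The share called higher was 13% for ventral SKPs and 8.77% for dorsal SKPs against the same MSCs. Since the genes were chosen with these levels known, nothing is read from the lack of overlap.

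Dorsal means rested on array 1. For Lyz2 the dorsal mean of 7.24 ± 3.42 (SD, n = 3) exceeded that of MSCs by 2.73 (SE 1.27), a difference of 0.85 without dorsal array 1 and of 4.20 without dorsal array 3. The corresponding dorsal excess was 1.76 for Cybb (0.071 without array 1, 3.20 without array 3) and 1.81 for Mrc1 (0.23 and 2.98). It was 1.89 for Cd68 (1.07 and 2.85) and 2.14 for Fcer1g (0.80 and 3.00). Cd53 differed by 0.63, by -0.35 without array 1 and by 1.46 without array 3. The sign of the dorsal minus ventral difference also turned without dorsal array 1 in 4 genes, from 1.15 to -0.73 for Lyz2, from 1.02 to -0.67 for Cybb, from 1.51 to -0.076 for Mrc1 and from 0.44 to -0.90 for Fcer1g. For Cd68 and Cd53 dorsal SKPs were below ventral SKPs with all arrays (-1.65 and -2.18) and without array 1 (-2.47 and -3.16), and the differences shrank to -0.69 and -1.36 without array 3.

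The facial excess over MSCs was less dependent on 1 array. Without facial array 3 it was 5.73 for Lyz2, 5.20 for Cybb, 4.94 for Mrc1, 4.06 for Cd68, 4.15 for Fcer1g and 2.84 for Cd53. Facial against ventral SKPs gave 4.93 (SE 1.36) for Lyz2, 5.37 (SE 1.31) for Cybb, 5.54 (SE 1.14) for Mrc1 and 3.39 (SE 1.03) for Fcer1g. The arrays of both regions did not overlap for these 4, and nothing is read from that. The share of all genes without overlap was not counted, and the 2.25% of all genes called higher in facial SKPs is a different measure. Cd68 (1.22, SE 0.79) and Cd53 (1.02, SE 0.89) overlapped between both regions, and without facial array 3 their differences were 0.52 and 0.024.

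Isolates of the same region differed widely in these genes. Facial array 3 exceeded facial array 2 by 2.49 (Cd68) to 3.69 (Cd53) on the log2 scale, and all 6 genes were at least 2-fold higher, as were 3.45% of all genes and 65 of 86 other macrophage and leukocyte genes. Facial array 3 exceeded facial array 1 at least 2-fold in all 6 genes as well (3.3% of all genes, 62 of the 86), and facial array 1 exceeded facial array 2 so in 5 of 6, all but Cd68 (1.37% of all genes, 37 of the 86). Dorsal array 1 exceeded dorsal array 2 by 1.31 (Cd68) to 4.54 (Lyz2), again at least 2-fold in all 6, with 1.62% of all genes and 34 of the 86. Against dorsal array 3 the range was 3.56 to 6.70, with 6.29% of all genes and 47 of the 86. Dorsal array 2 exceeded dorsal array 3 at least 2-fold in 5 of the 6, all but Fcer1g, but in 6 of the 86, beside 4.43% of all genes. The direction of each pair was set with the values known, and these pairs have no replicate.

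Ventral isolates differed less by the same measure. No gene of the 6 was 2-fold higher on ventral array 1 than 2, or on array 3 than 1, where 0.407% and 0.186% of all genes were. On ventral array 3 against array 2 there were 2 of 6, Lyz2 and Fcer1g, and 1 of the 86, beside 0.234% of all genes. Among MSCs, arrays 1 and 2 exceeded arrays 3 and 4 in all 6 genes, by the most in Lyz2 and Cybb, and array 1 was at least 2-fold above array 3 in 3 of 6 genes, with 3.52% of all genes and 3 of the 86.

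**Figure D2:**
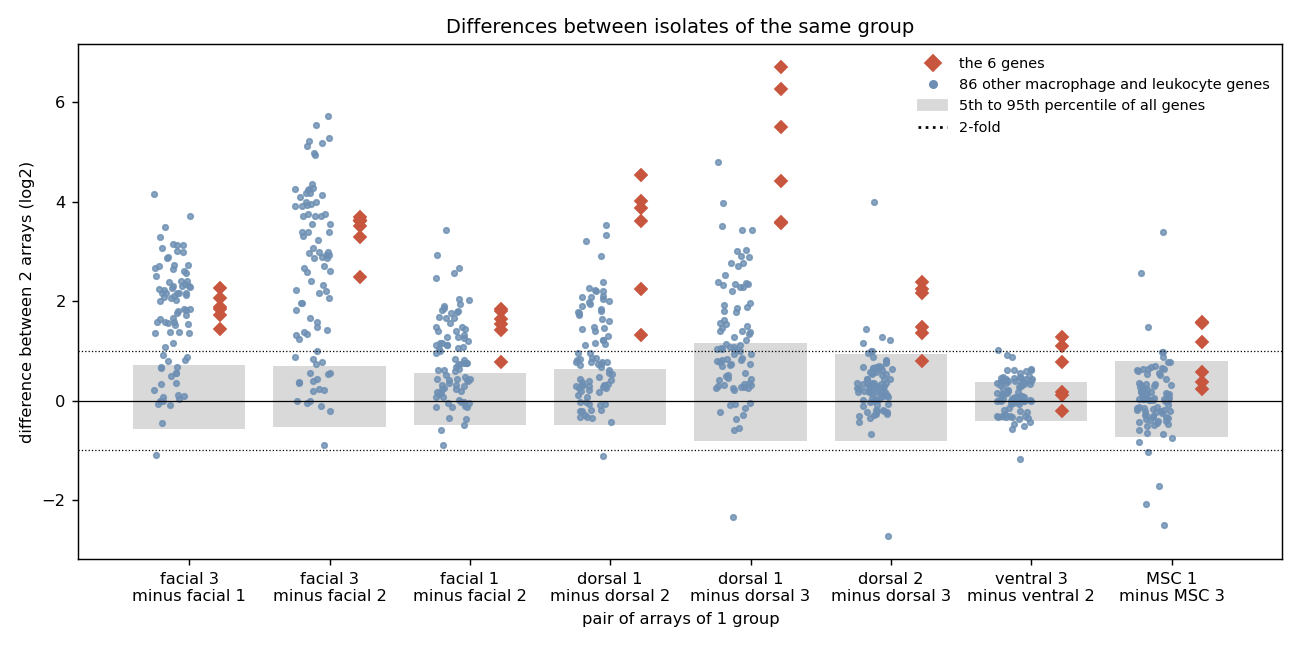
Difference in level between 2 arrays of the same group (log2, y axis) for 8 pairs (x axis). Diamonds are the 6 genes, dots the 86 other macrophage and leukocyte genes, grey bands the 5th to 95th percentile of all genes and dotted lines 2-fold. Facial and dorsal isolates spread widely (up to 6.70 for a member, dorsal 1 minus dorsal 3), while ventral arrays 3 and 2 differ by at most 1.28 in the 6 genes.

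The 6 genes fell into a group of 4 and a pair by their course over the arrays. Pearson r over all 13 arrays was 0.96 to 0.988 among Lyz2, Cybb, Mrc1 and Fcer1g, and 0.951 between Cd68 and Cd53. Between the 2 sets it ran from 0.77 (Mrc1 with Cd53) to 0.88 (Cd68 with Fcer1g). Over the 9 SKP arrays alone the values were 0.972 to 0.994 within the 4, 0.966 for Cd68 with Cd53 and 0.693 to 0.806 between the sets. All values share arrays and groups, so they describe these 13 cultures.

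The genes most like the mean course of the 6 were, by Pearson r over 13 arrays, Lcp1 (0.988), Ctss (0.986), Laptm5 (0.982), Naaa (0.98), Fcgr2b (0.972), Ptprc (0.97), Rac2 (0.969), Ccl3 (0.967), Ccl6 (0.963), Tyrobp (0.962), Il18 (0.959) and Rilpl2 (0.954). Lcp1 is an actin-bundling protein of leukocytes, Ctss a lysosomal protease of antigen-presenting cells, Laptm5 a lysosomal membrane protein of haematopoietic cells, and Ptprc the pan-leukocyte phosphatase CD45. Fcgr2b is the inhibitory Fc receptor, Tyrobp the ITAM adaptor DAP12, Rac2 a small GTPase of haematopoietic cells, Ccl3 and Ccl6 are chemokines, and Il18 is a cytokine. Of the 50 nearest genes, 19 were in the pooled macrophage and leukocyte lists and 25 in any list. The order depended on the measure: 6 of the 12 were also among the nearest 12 by Spearman rho, 7 over the 9 SKP arrays and 5 with group means removed. Because the 12 were picked for their likeness on these arrays, their courses and the tests given for them further on add nothing independent.

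Taken alone, the members had different neighbours. Fcer1g was nearest to Laptm5 (0.993) and Lcp1 (0.983). Mrc1 was nearest to the gene named LOC681325 (0.987) and to Cybb, followed by Ccl3 (0.984). Cd68 was nearest to Ptprj (0.964), a receptor tyrosine phosphatase, and to the interferon-induced GTPase Ifi47 (0.954), and Cd53 to Sla (0.955), an adaptor of haematopoietic cells, and to Cd68. The cholesterol hydroxylase gene Ch25h (0.951) and the retinol dehydrogenase gene Dhrs9 (0.945) followed Cd68 too. These genes, like Cd68, were higher in ventral SKPs than in MSCs by limma with Benjamini-Hochberg adjustment: Dhrs9 by 2.82 (SE 0.66, adjusted p = 0.0082), Ch25h by 2.60 (SE 0.62, adjusted p = 0.00956), Ifi47 by 2.52 (SE 0.70, adjusted p = 0.0204) and Ptprj by 1.24 (SE 0.34, adjusted p = 0.0203). They were picked for a likeness measured on these arrays, so their tests add nothing independent.

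Other macrophage and leukocyte genes, taken from general knowledge of the cell type in 5 lists (macrophage identity, skin-resident macrophage, general leukocyte, transcription factors, ITAM and Fc receptor signalling), were read beside the 6. The lists were made with earlier results of these data known, and they hold 6 of the 12 genes nearest to the members. Their counts are therefore a description and not independent support. Of 101 listed, 86 were measured. In facial SKPs against MSCs 52 of the 86 were called higher and 0 lower (limma, adjusted p under 0.05 by Benjamini-Hochberg over the 14506 genes), or 60.5%, beside 9.47% of all genes higher and 9.58% lower. At an unadjusted p under 0.05 the counts were 70 and 0. The median difference was 1.77, against -0.029 over all genes. Without facial array 3 the count called was 29 and without MSC array 4 it was 32. Against the same MSCs, 5 of 86 were higher and 1 lower in dorsal SKPs (8.77% and 7.76% of all genes; 3 called without MSC array 4, and 5 higher and 0 lower without dorsal array 3), and 9 higher and 1 lower in ventral SKPs (13% and 11.4%). SKPs as a whole had 18 higher and 1 lower (13.1% and 12.2%), a count of 41 without facial array 2 and 11 without MSC array 4. In what follows, a gene whose MSC mean was below background has its fold given as a bound over the MSC background of 4.04, beside the measured log2 difference.

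**Figure D3:**
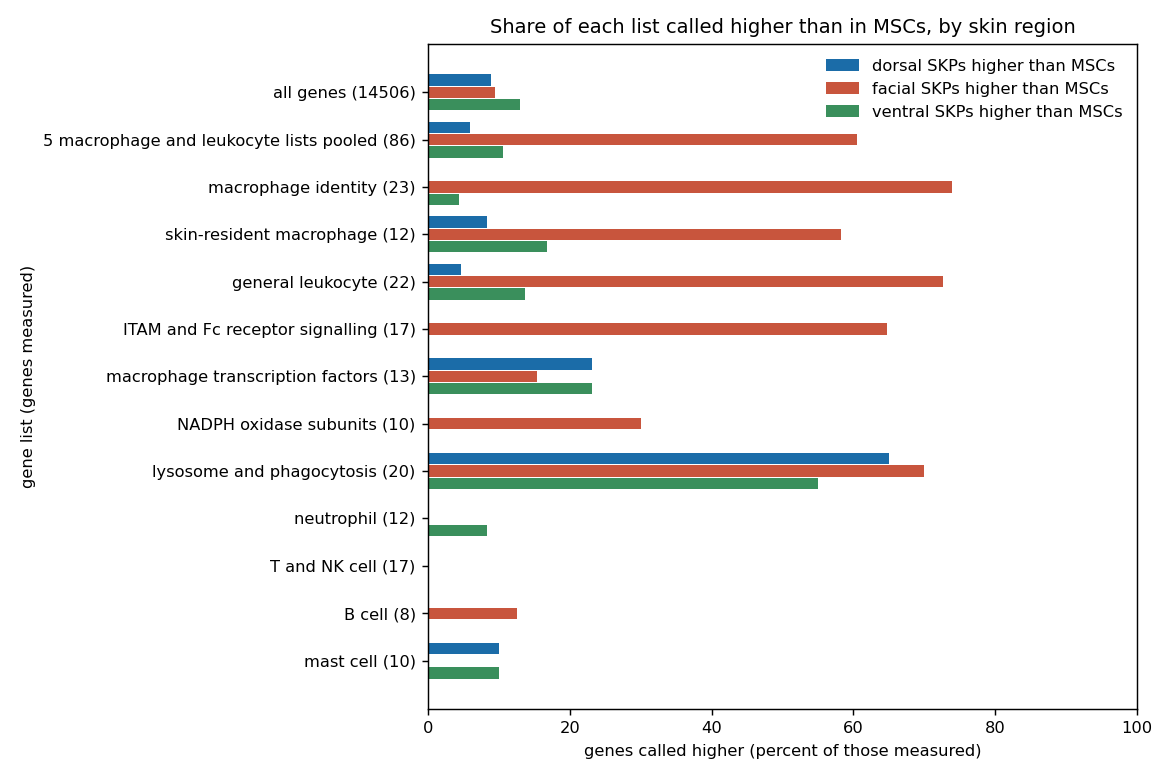
Share of each gene list called higher than in MSCs (percent of the genes measured, x axis) in dorsal, facial and ventral SKPs, by limma with Benjamini-Hochberg adjustment. In facial SKPs 60.5% of the 86 pooled genes were called against 9.47% of all genes, whereas the lysosome list was called in similar numbers in all 3 regions (13, 14 and 11 of 20). The lists were made with earlier results of these data known.

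Macrophage identity genes were called higher in facial SKPs in 17 of 23 cases, beside 9.47% of all genes, with a median difference of 2.51. That count was 11 without facial array 1 or MSC array 2, 10 without facial array 3 and 9 without MSC array 4. The alpha M integrin Itgam rose by 3.42 (SE 0.78, adjusted p = 0.00947 by limma), at least 6.44-fold, and Laptm5 by 4.43 (SE 0.89, adjusted p = 0.00469). Csf1r, the receptor on which macrophages depend for survival, was at 7.37, 5.56 and 10.50 on the facial arrays, 6.59, 4.39 and 4.20 on the dorsal, 4.44, 4.07 and 5.09 on the ventral and 4.56, 4.67, 4.55 and 3.96 on the MSC arrays. It was high where the group of 4 was high, and its ventral and MSC ranges overlapped. It rose in facial SKPs by 3.37 (SE 0.92, adjusted p = 0.0243 by limma, and 0.00424 to 0.068 over the alternatives). The call was lost in 3 of 20 alternatives, among them the fits without facial array 3 (0.068) or MSC array 4 (0.0591). Adgre1, the F4/80 antigen, rose by 3.31 (SE 0.92, adjusted p = 0.0264), at least 4.24-fold, and was at 6.33, 3.41 and 8.64 on the facial arrays, so 1 of the 3 was below background. Over the alternatives its adjusted p was 0.000919 to 0.0926. The call was lost in 5 of 20, among them the fits without facial array 1 (0.077), facial array 3 (0.0926), MSC array 2 (0.056) or MSC array 4 (0.0561). The scavenger receptor gene Cd163 was above background on facial array 3 alone (8.09, and at most 3.94 elsewhere) and was not called (1.79, SE 0.80, adjusted p = 0.15).

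Of the skin-resident macrophage list 7 of 12 genes were called higher in facial SKPs (3 without facial array 3 or MSC array 4, 4 without facial array 1 or MSC array 2), beside 9.47% of all genes, with a median of 2.21. C1qa, a chain of complement C1q, was at 7.78, 5.22 and 10.50 on the facial arrays and between 3.97 and 4.78 on all ventral and MSC arrays. It rose by 3.28 (SE 0.91, adjusted p = 0.0254 by limma; 0.00116 to 0.0701 over the alternatives). The call was lost in 5 of 20 alternatives, among them the fits without facial array 1 (0.0652), facial array 3 (0.0701), MSC array 3 (0.0532) or MSC array 4 (0.0537). The hyaluronan receptor gene Lyve1, named after its values were seen, rose by 2.19 (SE 0.34, adjusted p = 0.000989). Among general leukocyte genes 16 of 22 were called (8 without facial array 3), including Lcp1, which rose by 4.88 (SE 0.97, adjusted p = 0.0044), Ptprc by 4.15 (SE 0.93, adjusted p = 0.00882; at least 13.4-fold) and Rac2 by 3.34 (SE 0.71, adjusted p = 0.00646).

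Partners of the members moved unevenly in facial SKPs. Around Fcer1g, 11 of 17 ITAM and Fc receptor genes were called higher (7 without MSC array 4), beside 9.47% of all genes, with a median of 1.77. Fcgr2b stood at 8.76, 6.10 and 10.35 on the facial arrays and at 3.00 to 3.61 on the MSC arrays, and rose by 5.07 (SE 0.84, adjusted p = 0.00148 by limma), at least 20.6-fold. Tyrobp rose by 3.25 (SE 0.77, adjusted p = 0.0122), and the kinase Syk, which binds phosphorylated ITAMs, rose by 1.61 (SE 0.41, adjusted p = 0.0173). The call of Syk was lost with the sample number of the titles as a term in the fit. Its adjusted p was then 0.0601, out of 0.00571 to 0.0601 over the alternatives.

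Around Cybb, 3 of 10 NADPH oxidase genes were called higher in facial SKPs (30%, beside 9.47% of all genes). Ncf1 (p47phox) rose by 2.67 (SE 0.63, adjusted p = 0.0119 by limma; at least 5.97-fold), Ncf4 (p40phox) by 1.73 (SE 0.44, adjusted p = 0.017) and Rac2 as given above. The membrane partner Cyba (p22phox), which is also used by oxidases of other cells, lay between 7.13 and 8.97 on all 13 arrays and was not called (0.36, SE 0.32, adjusted p = 0.508).

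Around Lyz2, 1 of 5 genes of the lysozyme family was called higher in facial SKPs, beside 9.47% of all genes. The close homologue Lyc2 was at 4.60, 3.69 and 5.88 on the facial arrays and at 2.46 to 2.87 on the MSC arrays, and rose by 2.08 (SE 0.47, adjusted p = 0.00929 by limma), at least 1.6-fold. Probes of Lyz2 and of its homologues may share sequence, so the level of Lyc2 is uncertain. Of the lectins related to Mrc1, 2 of 6 were called higher, beside the same 9.47% of all genes. That count was 0 without facial array 3, MSC array 3 or MSC array 4 and 1 without facial array 1 or any 1 ventral array. The paralogue Mrc2, an endocytic collagen receptor of fibroblasts, lay between 8.39 and 10.59 on all arrays and was not called (0.84, SE 0.36, adjusted p = 0.128).

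Tetraspanins, the family of Cd53, were called higher in facial SKPs in 3 of 16 cases, or 18.8%, beside 9.47% of all genes (6 called without dorsal array 3). Cd82 rose by 1.44 (SE 0.10, adjusted p = 4.23e-06 by limma) and Tspan9 by 2.68 (SE 0.16, adjusted p = 7.64e-07). Both had a near constant level over all 9 SKP arrays (11.16 to 11.61 for Cd82, 9.01 to 9.91 for Tspan9), unlike Cd53. The leukocyte tetraspanin Cd37 was at 5.64, 4.88 and 7.20 on the facial arrays and was not called (1.10, SE 0.41, adjusted p = 0.086).

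Many of the 20 genes of the lysosome, the compartment of Cd68, were called higher than in MSCs in each SKP region. There were 13 in dorsal SKPs (median 0.98; 11 without dorsal array 3), where 8.77% of all genes were called higher. Facial SKPs had 14 (median 1.10), beside 9.47%, and ventral SKPs 11 with 1 gene lower (median 0.94), beside 13%. The glycoprotein gene Gpnmb was at 11.65 to 13.18 on all SKP arrays and 8.66 to 9.76 on all MSC arrays, and rose in facial SKPs by 3.38 (SE 0.31, adjusted p = 2.32e-05 by limma) and in ventral SKPs by 2.95 (SE 0.31, adjusted p = 4.81e-05). Ctss, picked above for its likeness to the 6 genes, was at 9.13, 7.16 and 11.23 on the facial arrays, 8.17, 5.92 and 3.78 on the dorsal, 5.81, 6.4 and 6.62 on the ventral and 3.41 to 4.96 on the MSC arrays. It rose in facial SKPs by 4.95 (SE 1.00, adjusted p = 0.00481). The metal transporter gene Slc11a1 of phagosomes rose by 4.61 (SE 0.49, adjusted p = 5.85e-05).

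Transcription factors were called higher in 2 of 13 cases in facial SKPs (5 without facial array 2, 1 without facial array 3). That is 15.4% beside 9.47% of all genes, a share near the background that says nothing about the list. These were Maf, with a rise of 1.63 (SE 0.31, adjusted p = 0.00333 by limma), and Nr1h3, a liver X receptor, with an adjusted p of 0.0167 (0.014 to 0.0578 over the alternatives). The call of Nr1h3 was lost without facial array 3 (0.0531) and with the sample number of the titles as a term in the fit (0.0578). Spi1 was at 4.89, 4.91 and 7.77 on the facial arrays, 5.65, 4.52 and 4.27 on the dorsal, 4.19, 4.04 and 4.53 on the ventral and 4.04 to 4.17 on the MSC arrays. It was highest on facial array 3 and dorsal array 1, the highest arrays of those regions in the 6 genes too, and was not called (1.75, SE 0.58, adjusted p = 0.0567). Among myeloid growth factor receptors 4 of 7 were called higher (2 without facial array 3 or MSC array 4), beside the same 9.47% of all genes. These were Csf1r, Il4r, Csf2ra and Csf2rb. The last rose by 2.41 (SE 0.58, adjusted p = 0.0127). Il4r (1.16, SE 0.32, adjusted p = 0.0247, and 0.0158 to 0.108 over the alternatives) lost its call without facial array 3 (0.0885), MSC array 3 (0.0586) or MSC array 4 (0.0656). Its call was also lost with the sample number as a term in the fit (0.108). The ligands of Csf1r did not pass the test (Csf1 0.10, SE 0.52, adjusted p = 0.924; Il34 0.27, SE 0.22, adjusted p = 0.471), and Csf1 lay between 9.40 and 11.68 on all arrays. The 1 growth factor called of 7 (2 without facial array 3) was Tnfsf11, the osteoclast factor RANKL, at 7.63, 7.92 and 7.69 on the facial arrays and at most 4.70 elsewhere, at least 13-fold higher than in MSCs.

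Ventral SKPs had 10 calls in the 86 pooled genes. The 9 higher were 10.5%, below the 13% of all genes, so their number does not set the list apart, and they are named as single genes. Each gene had 1 residual variance over all 4 groups, so a wide facial or dorsal spread also widened the ventral SE. The count of 9 may be too low for this reason, which was not tested. Next to the raised Cd68 and Cd53, the pooled genes called higher than in MSCs were Arhgdib, Ccr2, Sla, Mertk, Nr1h3, Selenop, Maf, Cebpb and Cd48, and Runx1 was lower. Sla was at 6.29, 6.80 and 6.91 on the ventral arrays and at 3.56 to 4.45 on the MSC arrays, and rose by 2.83 (SE 0.62, adjusted p = 0.00598 by limma), at least 6.16-fold. Mertk, a receptor for the uptake of dying cells, rose by 2.24 (SE 0.51, adjusted p = 0.00679), at least 4.41-fold. Ccr2, a receptor of monocytes, was at 6.51, 6.31 and 7.19 on the ventral arrays and at most 3.15 on all others, and rose by 3.66 (SE 0.19, adjusted p = 2.27e-07), at least 6.17-fold. The class II antigen-presentation genes RT1-Da and Cd74 rose there too, by 4.21 (adjusted p = 0.00772; at least 15.7-fold) and 3.93 (adjusted p = 0.00883), and on facial array 3 reached 8.97 and 8.90. Defining macrophage genes did not pass the test in ventral SKPs: Csf1r differed by 0.095 (SE 0.92, adjusted p = 0.958), Adgre1 by 0.12 (SE 0.92, adjusted p = 0.943), Itgam by 0.28 (SE 0.78, adjusted p = 0.839), C1qa by -0.35 (SE 0.91, adjusted p = 0.823) and Ptprc by 1.25 (SE 0.93, adjusted p = 0.378). The SD of Csf1r was 2.5 (facial), 1.33 (dorsal), 0.52 (ventral) and 0.32 (MSC). For Ptprc it was 2.12, 1.92, 0.44 and 0.35 in the same order. With the variance shared by all groups, these tests cannot show that ventral SKPs and MSCs were alike in these genes. On facial arrays 1 and 3 and dorsal array 1, Csf1r, Adgre1, Itgam and C1qa were all above background, as 3 of them were on facial array 2 (Adgre1 was not). On the 3 ventral arrays, where Cd68 and Cd53 were high, Csf1r (4.07 to 5.09) and C1qa (3.97 to 4.34) were above the background of 3.94 and Adgre1 and Itgam were below it. The same 2 of 4 were above background on dorsal arrays 2 and 3 and MSC arrays 1 to 3. By these 4 markers alone the ventral arrays thus counted as most MSC arrays did. For some other genes of the lists the ventral and MSC arrays did not overlap. Ptprc was at 4.43 to 5.30 on the ventral and 3.37 to 4.10 on the MSC arrays. Laptm5 (5.12 to 6.05 against 3.83 to 4.54) and Fcgr2b (4.93 to 5.36 against 3.00 to 3.61) were also wholly above MSCs. So were Tyrobp, Mertk and Cd14 (8.93 to 9.32 against 7.32 to 8.84), while Cd163, Spi1 and the 4 markers overlapped. The share of all genes whose ventral and MSC arrays do not overlap was not counted, so nothing is read from these ranges. The 13% of all genes called higher in ventral SKPs is a different measure.

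Between SKP regions fewer of the pooled genes were called. Facial minus ventral SKPs gave 13 higher and 2 lower of 86 (2.25% and 4.36% of all genes), with a median of 1.64. That count of 15 was 46 without facial array 2, 5 without facial array 1, 7 without facial array 3 and 4 without ventral array 1, 2 or 3. Facial minus dorsal SKPs gave 1 higher, Lyve1 (2.38, SE 0.37, adjusted p = 0.00863 by limma), and 0 lower, where 0.793% of all genes were higher and 0.462% lower, with a median of 1.35. At an unadjusted p under 0.05, 55 were higher and 1 lower. The count was 18 without facial array 2, 6 without dorsal array 1 and 1 without dorsal array 3. Dorsal minus ventral SKPs gave Tlr4 higher and Ccr2 lower (2.35% and 3.76% of all genes), with a median of 0.22, 4 calls without dorsal array 1, 2 without dorsal array 3, and 1 call without facial array 1 or 3, MSC array 1, 2 or 3, or any 1 ventral array.

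Lists of markers of other blood cells had low means, with single genes above background. The list means per array were 3.61 to 3.85 for 17 T and NK cell genes, 3.35 to 3.55 for 8 B cell genes, 3.35 to 3.57 for 12 neutrophil genes and 3.04 to 3.49 for 10 mast cell genes, all below background. Above background in every group were 5 T and NK cell genes, 3 B cell genes, 1 neutrophil gene and 1 mast cell gene, Gata2, a factor also used outside mast cells, at 4.45 to 6.32. Kit, a receptor of mast cells and melanocytes, was at 4.56 to 8.52 on the SKP arrays and 3.03 to 5.54 on the MSC arrays, and the neutrophil gene Lcn2 was above background in the 3 SKP regions. In facial SKPs against MSCs limma called 0 T and NK cell genes (1 higher at an unadjusted p under 0.05) and 0 neutrophil genes (1 higher and 1 lower), and leaving out 1 array raised either count to at most 1. Of all genes, 9.47% were called higher and 9.58% lower in that comparison. The B cell gene Fcrla was called higher (0.52) and the mast cell gene Mcpt1l1 lower (-0.39), both below background in every group. Both calls were lost without dorsal array 1, facial array 2 or 3, MSC array 3 or 4 or any 1 ventral array. That of Fcrla was also lost without MSC array 2, and that of Mcpt1l1 also without dorsal array 2, facial array 1 or MSC array 1. The call of Mcpt1l1 was lost in 13 of 19 alternatives. The dendritic and Langerhans cell list (8 genes) had means of 4.01 to 4.72 and 1 call in facial SKPs, Cd1d1 (2 calls without MSC array 4). In ventral SKPs 3 of these 8 were called higher (2 without ventral array 2), beside 13% of all genes. These were Zbtb46 (1.17), Ccr7 (0.71) and Cd1d1 (0.91), and Kit (2.51) and Lcn2 (0.92) were called too, by the same test. Kit lost its call with the sample number of the titles as a term in the fit (adjusted p = 0.0531). Lcn2 lost its call without ventral array 3 (adjusted p = 0.0545, out of 0.00341 to 0.0545 over the alternatives). Gata2 (-1.18) and Mcpt1l1 were called lower in ventral SKPs, the latter not without ventral array 3 (adjusted p = 0.0654) or with that term (0.0549). The part of these cells in the results was not tested. By comparison the 23 macrophage identity genes averaged 8.48 on facial array 3, 6.44 and 5.33 on facial arrays 1 and 2, 5.90 on dorsal array 1 and 4.28 to 4.84 on the other 9 arrays. The mean of the 14 stromal genes was 11.78 to 11.89 on the facial arrays and 12.05 on dorsal array 1 (facial array 3 had 11.78 and facial array 1 had 11.80).

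**Figure D4:**
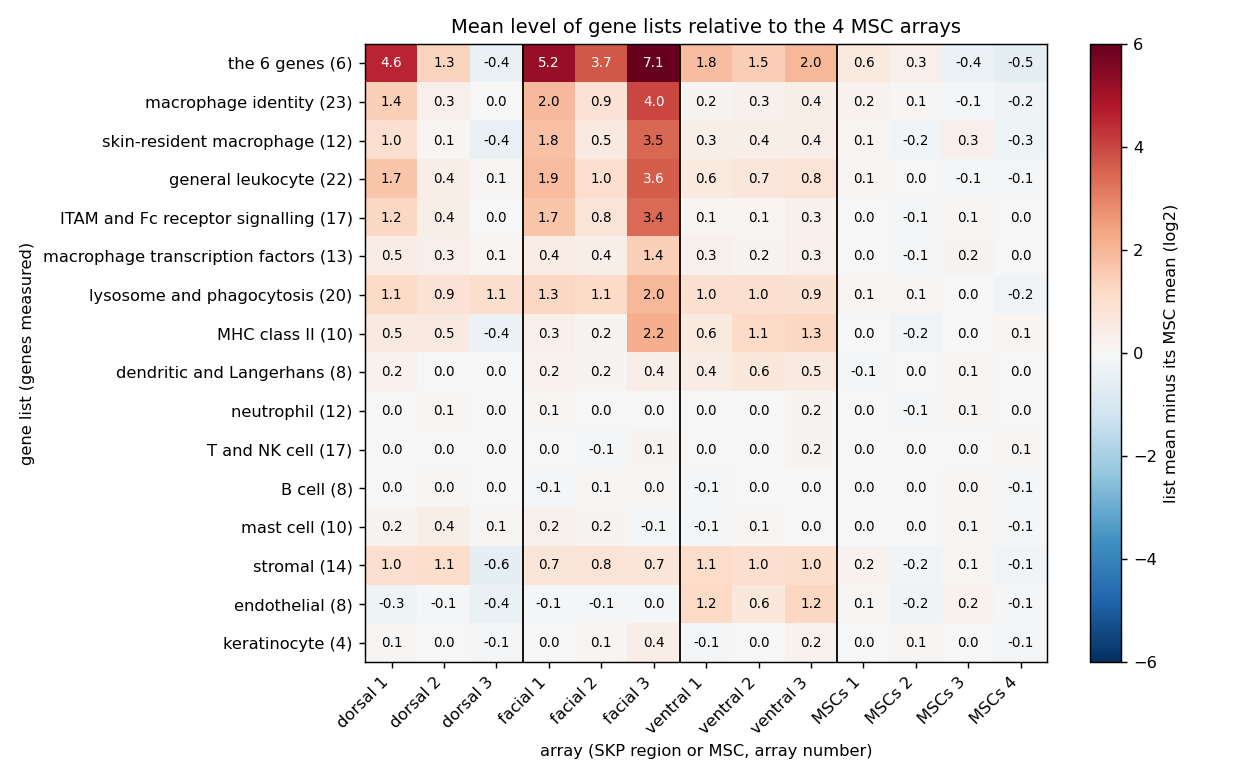
Mean level of 16 gene lists on each array, as the difference from the mean of the 4 MSC arrays (log2, colour and printed value). Rows are lists with the number of genes measured, columns are arrays by group. The macrophage, leukocyte and ITAM rows follow the row of the 6 genes on the facial arrays and dorsal array 1, the lysosome row is raised on all SKP arrays, and the T and NK cell, B cell and neutrophil rows stay near 0.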

How the data were processed

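Expression was measured in 13 cultures (3 dorsal, 3 facial and 3 ventral SKP isolates, 4 MSC isolates) on Rat Gene 1.0 ST arrays, from RNA extracted with Trizol and RNeasy columns, per the labels' protocols. Per the labels, the authors summarised the arrays to log2 values with RMA, using the core gene set of Affymetrix Expression Console. The submitters' processing notes list limma as well. No version is stated in the labels. RMA makes the distributions of all arrays alike and compresses low values, so folds of genes near background are understated. Arrays have no read depth, and their number limits the precision.

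Of 29215 probe sets, 15310 had exactly 1 symbol in the platform annotation, 323 several and 13582 none. Only the first kind was used. Entrez identifiers gave the current symbol for 15279 of them and accessions for 6, 25 were kept as they stood, and 2 changed. For 527 genes with several probe sets the one with the highest mean was used, which left 14506 genes. No arrays held identical values.

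With limma 3.58.1 (R 4.3.3), group means of the 4 groups were fitted for each gene on the 13 arrays together, and 7 comparisons were drawn, with two-sided p-values adjusted by Benjamini-Hochberg over all genes and calls at 0.05. The p-values set a difference of group means against the spread of arrays within groups, pooled over the 4 groups. SE is the moderated standard error, from 1 residual variance per gene shared by the 4 groups. In simulated data for SKPs minus MSCs over 14506 genes, 41 of 50 genes changed by 1 log2 unit and 50, 50 and 49 of 50 changed by 2, 3 and 4 were recovered, with 14 false calls. The simulated noise had 1 SD per gene, equal in all groups. These counts therefore do not describe genes whose spread differed between groups, as that of the members did.

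Genes were named by rule: the members, the 12 nearest to their mean course, up to 3 called genes per list with the largest SKP minus MSC differences, and a fixed set of 20 macrophage genes with partners of the members. Others named were chosen after their values were seen. The members and the 28 lists were chosen with earlier results of these data known. Alternatives were the variance model, array weights, median centring, quantile normalization, the mean over probe sets, a filter on low genes, a replicate block and leaving out each array. The pairs of arrays, the neighbours of single members and the promoter letters were added after the data were seen. Promoter sequences come from RefSeq, assembly GRCr8, and no other positions are given because the labels state no build for the array. Tables were made with pandas 2.3.3 and figures with matplotlib 3.10.9 in Python 3.11.15.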

Additional observations from a re-analysis of the deposited data

Results flagged for a closer look

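Among the 6 genes and the macrophage-side genes named with them, 51 were checked for a single MSC array far from the other 3. The gap to the nearest array, as a share of the range of the 4, passed Dixon's 95% critical value for 4 samples in 5 genes: Sla (0.843, MSC array 3 high), Nr1h3 (0.878, MSC array 3 low), Csf1r (0.839, MSC array 4 low), Itgam (0.887, MSC array 3 low) and Cd37 (0.905, MSC array 4 high). Chance flags about 1 in 20 groups. None of the 6 members was among them. Groups of 3 arrays were not checked in this way.

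Differences between SKP regions passed limma's test (Benjamini-Hochberg adjusted p under 0.05) for these named genes. Facial SKPs exceeded ventral SKPs in Ccl3 (3.12), Ccl6 (4.27), Slc11a1 (3.19), Itgam (3.14), Lyc2 (2.02) and C1qa (3.63), and were below them in Ccr2 (-3.67) and Cebpb (-0.57). Dorsal SKPs were below ventral SKPs in Ccr2 (-3.79). The factor Tnfsf11 was higher in facial than in dorsal (3.47) and ventral SKPs (3.73). Without ventral array 1 the adjusted p was 0.135 for Ccl3, 0.0554 for Ccl6, 0.124 for Itgam, 0.127 for C1qa, 0.0923 for Lyc2 and 0.0897 for Cebpb, out of 0.00714 to 0.135, 0.00141 to 0.0587, 0.00925 to 0.13, 0.00399 to 0.13, 0.00602 to 0.111 and 0.00409 to 0.104 over the alternatives. The calls of these 6 genes were also lost without facial array 3 or ventral array 3. Of the 20 alternatives, 12 lost the call of C1qa, 11 that of Itgam and 10 that of Ccl3. The calls of Lyc2 and of Cebpb were each lost in 6, and that of Ccl6 in 3. The calls of Ccr2, Slc11a1 and Tnfsf11 were kept under all 20 alternatives.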

How the results depend on the processing

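The differences of the 6 genes stayed within 1 residual SD of the fit in 837 of 840 recomputed cases, and the other 3 were Mrc1 without dorsal array 1. That SD holds the wide spread between isolates, so it is a loose limit. The sign changed in 5 cases, among them the dorsal differences without dorsal array 1 given above. Calls of the named genes other than the 6 were kept in 3462 of 3816 cases and none reversed. Calls in the pooled genes moved by over 1.5 times as follows. With a replicate block (the sample number of the titles as a term) they were 10 of 19 for SKPs minus MSCs, 3 of 6 for dorsal and 27 of 52 for facial SKPs minus MSCs and 6 of 15 for facial minus ventral SKPs. With array weights they were 41 for facial minus ventral and 4 against 2 for dorsal minus ventral SKPs. Leaving out 1 array gave 11 to 41 for SKPs minus MSCs, 3 to 9 for dorsal and 29 to 64 for facial SKPs minus MSCs, 1 to 18 against 1 for facial minus dorsal, 4 to 46 for facial minus ventral and 1 to 4 for dorsal minus ventral SKPs. The cause was not tested, beyond the fewer arrays in these fits. Ventral SKPs minus MSCs (9 to 13 against 10) and the other lists together (54 to 80 against 69) did not move so far. Same-numbered arrays of different groups deviated together weakly at most. Over 18 pairs r was -0.122 to 0.199 (dorsal array 2 with facial array 2), with 1 above 0.1. The arrays were fitted as unpaired, and these values cannot show whether any of them shared an animal or a batch. Of the 12 nearest genes, 6, 7 and 5 were shared by Spearman rho, the 9 SKP arrays alone and group means removed. The 25th percentile of all genes as background gave 3.84 in dorsal, 3.84 in facial, 3.79 in ventral SKPs and 3.83 in MSCs, in place of 4.03, 4.03, 3.94 and 4.04. With 3 or 4 arrays a group and a wide spread between isolates, a difference that was not called is not shown to be absent, and signals near background have no order.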
